A study of Mus musculus with 6 samples.

Results

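The Notch ligands, receptors and targets described here are 10 genes: the ligands Dll1, Jag1 and Jag2, the receptors Notch1, Notch2 and Notch3, the receptor modifier Lfng, and the target genes Hes1, Hey1 and Nrarp. They were taken by name, with earlier results of these data known, from the 19937 mouse genes that have a probe set of their own on the array. Each of the 10 was measured by 1 probe set. The RNA came from mammary epithelial organoids, clumps of gland tissue freed with collagenase and hyaluronidase and embedded in growth factor-reduced Matrigel, a basement-membrane gel. All organoids came from age-matched female FVB mice of 1 genotype, ErbB3 DOX-KO, in which loss of Erbb3, an EGFR-family receptor for neuregulins, is inducible with doxycycline (DOX). The DOX group was cultured for 14 days with 5 µM DOX (3 arrays), and the control group for as long without it (3 arrays). The question posed is how gene expression changes on targeted loss of ErbB3. No DOX-treated organoids without the inducible alleles were among the arrays, so an effect of the drug and an effect of the knockout cannot be told apart. The labels give neither the promoter that drives the inducible system nor whether replicates came from separate mice, so p values measure the spread between these cultures.

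A Notch receptor is activated when it binds a ligand of the Delta or Jagged type on a neighbouring cell. Proteases then cut it, and its inner part moves to the nucleus, where it joins the DNA-binding protein Rbpj and Mastermind-like coactivators to switch on targets of the Hes and Hey families and Nrarp, a feedback inhibitor. In the mammary gland the pathway is known for its part in the choice between basal and luminal cell fates, and Dll1 is known as a ligand of basal cells.

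Values are log2 expression summaries, on which a difference of 1 is a doubling. The comparison asked of every gene was DOX minus control, fitted with limma over all 19937 genes, and a gene is called higher or lower where its Benjamini-Hochberg adjusted p is under 0.05. Erbb3 itself read 10.36, 9.31 and 9.82 on the DOX-labelled arrays against 9.78, 9.71 and 9.69 on control arrays (difference 0.10, adjusted p = 0.845), so it was not lower as labelled. Its difference without DOX replicate 2 was 0.37 (adjusted p = 0.105), with both remaining DOX-labelled arrays above the controls. Which exons the knockout removes is not stated in the labels. DOX replicate 2 stood apart from all other arrays. Across genes it correlated with them at 0.816 to 0.865, whereas no pair of the other 5 arrays was below 0.963. Its slope against the mean of the controls was 0.55, where DOX replicates 1 and 3 had 0.98 and 0.94. With all 6 arrays 24 genes were higher and 450 lower, and without DOX replicate 2 there were 2454 and 2855. The split also moved with scaling, to 185 higher and 626 lower after a second quantile normalization and to 557 and 1197 after cyclic loess. Each result below is therefore given with all arrays and without that array.

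The ligand Dll1, the receptor Notch3, Lfng and all 3 target genes read lower in every DOX-labelled array than in any control array, and the ligand Jag1 read higher. With all 6 arrays Dll1 alone was called, 7.27-fold lower, so 1 of 10 members was called, where 2.38% of all genes were (0.120% higher and 2.26% lower). Without DOX replicate 2, Dll1, Notch3, Lfng, Hes1, Hey1 and Nrarp were lower, Jag1, Notch1 and Notch2 were higher, and Jag2 was not called. That is 9 of 10 members, against a background of 26.6% of all genes in the same 5 arrays (12.3% higher and 14.3% lower). The median absolute difference over the 10 members was 1.06 with all arrays, against 0.35 over all genes, and 0.85 against 0.20 without DOX replicate 2. Neither the counts nor that comparison is matched for level. The members were chosen with earlier results of these data known, so these contrasts cannot test whether the pathway stands out. All members but Jag2 averaged above 5.92, the median over all genes, and genes with high control levels read low on DOX replicate 2. In bulk RNA of mixed cells, fewer cells that express a gene and less of its RNA per cell cannot be told apart.

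**Figure D1:**
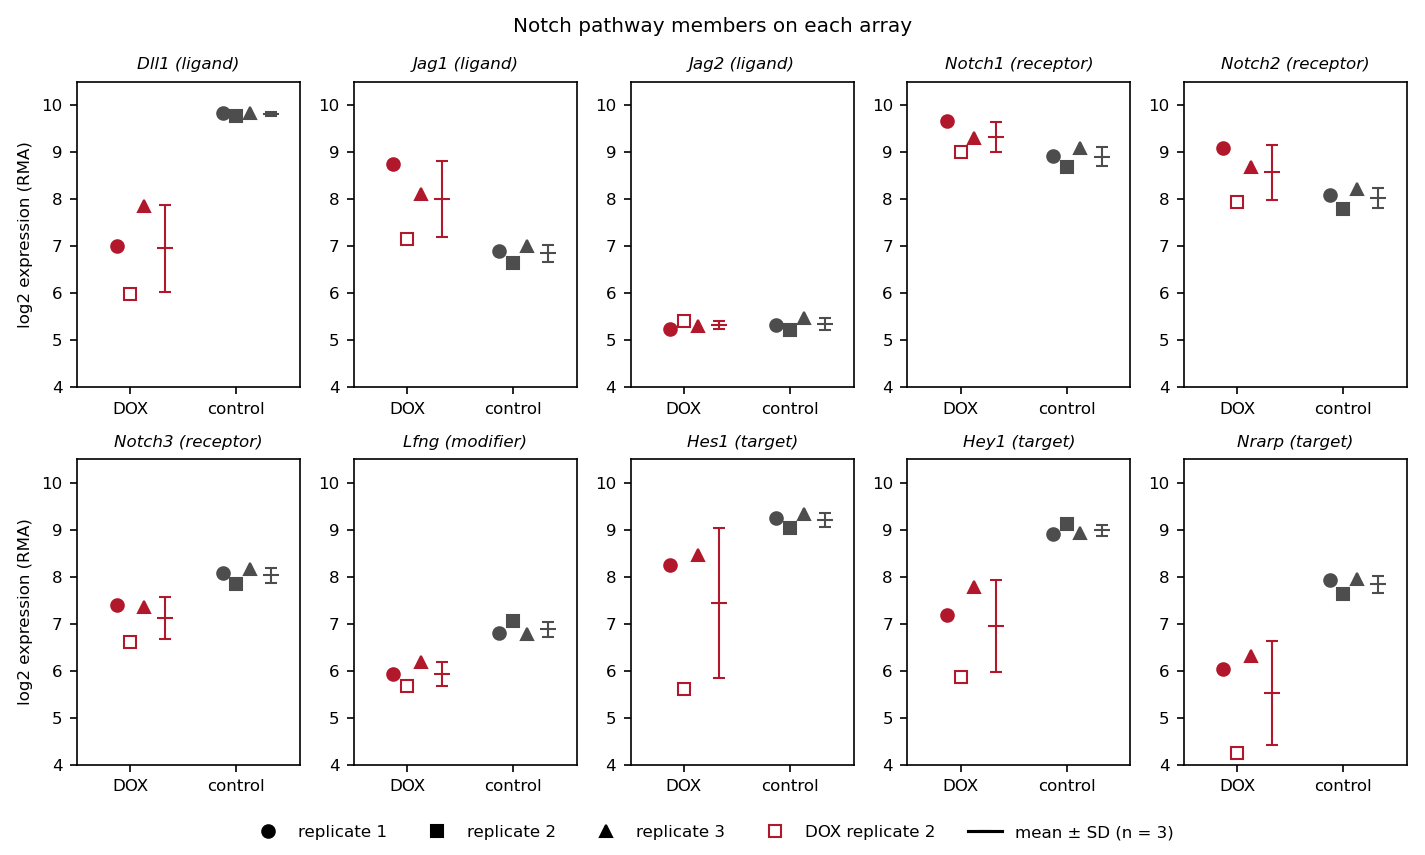
Log2 expression of each member on each array, with DOX-labelled arrays on the left and control arrays on the right of every panel and the open square for DOX replicate 2. Bars give mean ± SD (n = 3). Dll1, Notch3, Lfng, Hes1, Hey1 and Nrarp lie wholly below control, Jag1 wholly above, and the groups overlap for Jag2, Notch1 and Notch2.

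Dll1 encodes a Delta-type ligand that binds Notch receptors on adjacent cells. It read 7.01, 5.99 and 7.85 in DOX replicates 1, 2 and 3, against 9.84, 9.76 and 9.83 in control replicates. Every DOX-labelled array lay below every control array, and the control arrays were within 0.04 of their mean in SD. The means were 6.95 ± 0.93 in DOX-labelled arrays and 9.81 ± 0.04 in control arrays (SD, n = 3 each). The difference of −2.86 had a 95% confidence interval of −3.94 to −1.79 (SE 0.45, limma adjusted p = 0.0289). Without DOX replicate 2 it was −2.38 (SE 0.20, limma adjusted p = 8.51e-06), a 5.21-fold decrease. The call was lost without control replicate 1, 2 or 3 (adjusted p = 0.174, 0.171 and 0.177) and without DOX replicate 1 (adjusted p = 0.0905). It was also lost after centring each array on its median (adjusted p = 0.0538) and with the replicate number as a block, so it held in 8 of 14 alternatives, while the difference stayed between −3.31 and −2.38 over all of them.

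Jag1 encodes a Jagged-type ligand of the same receptors. It read 8.75, 7.15 and 8.10 in DOX replicates 1, 2 and 3, against 6.89, 6.63 and 7.00 in control replicates. All 3 DOX-labelled arrays lay above the controls, DOX replicate 2 by the least. The difference was 1.16 (95% confidence interval 0.19 to 2.13, SE 0.41) and was not called with all arrays (limma adjusted p = 0.274). Without DOX replicate 2 Jag1 rose by 1.58 (SE 0.18, limma adjusted p = 9.97e-05), a 3.00-fold increase. With all arrays it was also called after a second quantile normalization (1.32, limma adjusted p = 0.0408) and after cyclic loess normalization (1.45, limma adjusted p = 0.00954).

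Jag2, the other Jagged-type ligand, read 5.24, 5.40 and 5.30 in DOX replicates 1, 2 and 3, against 5.33, 5.21 and 5.48 in control replicates. The groups overlapped. The estimated difference was −0.02 (limma adjusted p = 0.941, 95% confidence interval −0.44 to 0.39), and −0.07 without DOX replicate 2 (95% confidence interval −0.33 to 0.20). Its level lay below 5.92, the median over all genes, where a probe set may follow changes poorly.

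The promoters of these ligands are shown because Dll1 and Jag1 read in opposite directions, and those of Lfng and Nrarp because both genes are known to respond to Notch. The windows are the 250 bases before a start listed in RefSeq on the mouse assembly GRCm38.p6, written 5′ to 3′ along the gene. Of the 10 members, 8 have an entry in the promoter table used, with Hes1 and Hey1 not in it. Capitals mark 3 motifs searched on both strands: TGGGAA, the core read by Rbpj, CACGTG, an E-box read by Hey proteins among others, and CACNAG, an N-box read by Hes proteins.
Dll1 (chr17:15376933-15377182, minus strand): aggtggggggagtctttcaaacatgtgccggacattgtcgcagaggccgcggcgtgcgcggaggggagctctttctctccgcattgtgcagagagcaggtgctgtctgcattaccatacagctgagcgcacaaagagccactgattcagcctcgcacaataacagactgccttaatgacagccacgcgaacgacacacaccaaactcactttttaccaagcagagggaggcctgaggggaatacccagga
Jag1 (chr2:137116521-137116770, minus strand): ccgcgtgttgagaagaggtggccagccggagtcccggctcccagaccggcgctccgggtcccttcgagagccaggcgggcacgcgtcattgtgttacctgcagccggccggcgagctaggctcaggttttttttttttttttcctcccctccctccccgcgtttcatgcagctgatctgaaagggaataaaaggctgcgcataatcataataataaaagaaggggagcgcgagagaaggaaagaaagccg
Lfng (chr5:140607091-140607340, plus strand): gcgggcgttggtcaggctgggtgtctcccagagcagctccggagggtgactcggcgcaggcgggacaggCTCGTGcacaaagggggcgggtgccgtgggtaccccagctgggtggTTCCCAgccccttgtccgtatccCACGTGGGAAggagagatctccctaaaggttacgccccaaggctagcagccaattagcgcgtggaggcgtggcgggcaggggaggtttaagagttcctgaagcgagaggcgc
Nrarp (chr2:25180508-25180757, plus strand): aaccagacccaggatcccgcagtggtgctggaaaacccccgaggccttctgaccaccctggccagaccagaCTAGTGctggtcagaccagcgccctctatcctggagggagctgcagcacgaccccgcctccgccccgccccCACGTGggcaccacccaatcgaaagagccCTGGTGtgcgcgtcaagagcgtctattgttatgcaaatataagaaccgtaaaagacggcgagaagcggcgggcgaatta

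Among the 9 windows of the 8 members, TGGGAA was found in that of Lfng alone, at 2 places, 1 on each strand. The copy on the gene's own strand starts 108 bases before the gene's start and overlaps a CACGTG that starts 112 bases before it. The joined letters CACGTGGGAA, a form looked for after the Lfng window had been seen, stand in 0.0731% of the 32851 windows in the table. TGGGAA alone stands in 21.6% of them, CACGTG in 6.02% and CACNAG in 36.7%. Nrarp holds a CACGTG that starts 108 bases before its start and 2 CACNAG matches. Lfng, Notch1 and Notch2 have 1 CACNAG match each and Notch3 has 2. Neither window of Dll1, nor those of Jag1 and Jag2, holds any of the 3 motifs. The Dll1 window not printed and that of Jag2 lie inside the gene's RefSeq span, and that of Notch3 reaches into it. A match describes the letters only, and binding was not measured.

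Of the receptors, Notch1 and Notch2 were higher and Notch3 lower in the 5 arrays without DOX replicate 2, and none was called with all 6. Notch1, a receptor known for its part in luminal cells of the gland, read 9.65, 9.00 and 9.30 in DOX replicates 1, 2 and 3, against 8.91, 8.69 and 9.09 in control replicates. DOX replicate 2 lay inside the control range and the other DOX-labelled arrays above it. The difference was 0.42 (95% confidence interval −0.14 to 0.98, limma adjusted p = 0.446). Without DOX replicate 2 it was 0.58 (SE 0.15, limma adjusted p = 0.015), a 1.49-fold increase.

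Notch2, a second widely expressed receptor, read 9.09, 7.94 and 8.69 in DOX replicates 1, 2 and 3, against 8.09, 7.79 and 8.20 in control replicates. As for Notch1, DOX replicate 2 alone fell inside the control range. The difference was 0.55 (95% confidence interval −0.22 to 1.31, limma adjusted p = 0.457), and without DOX replicate 2 Notch2 rose by 0.86 (SE 0.16, limma adjusted p = 0.00209). Over the 6 arrays Notch1 and Notch2 were the pair of members with the most similar patterns, with a root mean square difference of 0.17 between their values after each was centred on its own mean.

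Notch3 read 7.40, 6.61 and 7.35 in DOX replicates 1, 2 and 3, against 8.08, 7.84 and 8.16 in control replicates. All DOX-labelled arrays lay below all control arrays. The difference was −0.91 (95% confidence interval −1.54 to −0.27, limma adjusted p = 0.191), and −0.65 without DOX replicate 2 (SE 0.13, limma adjusted p = 0.00286). Lfng encodes the lunatic fringe glycosyltransferase, which adds a sugar to Notch receptors and shifts their response between Delta-type and Jagged-type ligands. It read 5.93, 5.67 and 6.19 in DOX replicates 1, 2 and 3, against 6.81, 7.06 and 6.77 in control replicates, again without overlap. Its difference was −0.95 (SE 0.21, limma adjusted p = 0.0879), and −0.82 without DOX replicate 2 (SE 0.13, limma adjusted p = 0.00103).

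**Figure D2:**
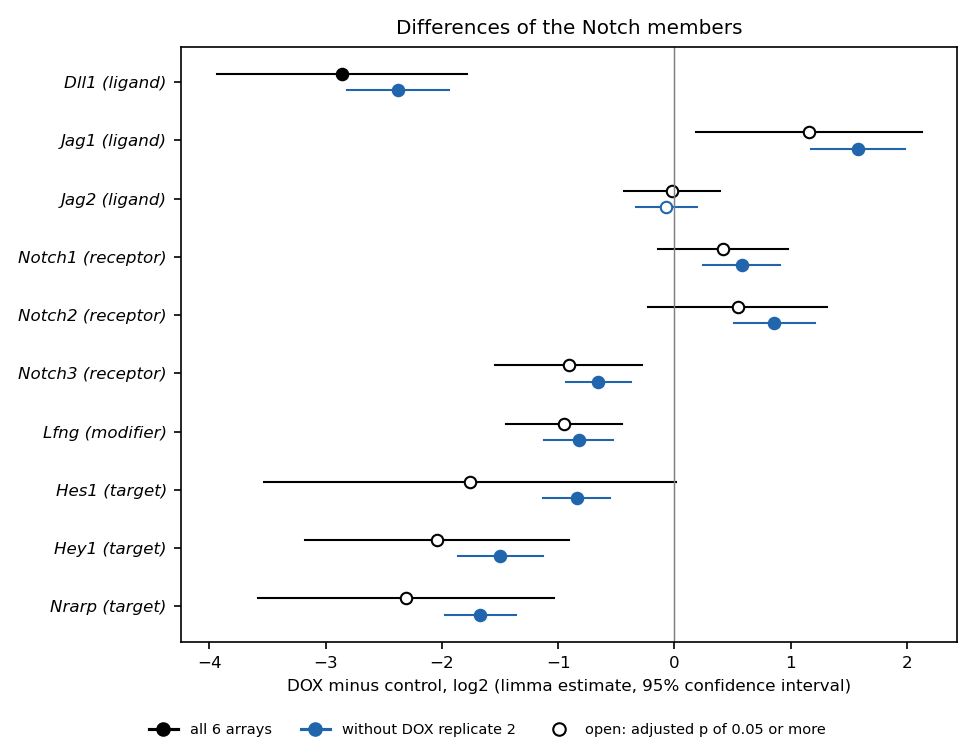
DOX minus control difference of each member on the log2 scale with its 95% confidence interval from limma, with all 6 arrays in black and without DOX replicate 2 in blue. Filled points have an adjusted p under 0.05. Dll1 is filled in both fits, and Jag2 in neither.

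The target genes Hes1, Hey1 and Nrarp were all lower in each DOX-labelled array than in any control array. Hes1 encodes a transcriptional repressor of the Hes family. It read 8.25, 5.60 and 8.47 in DOX replicates 1, 2 and 3, against 9.24, 9.03 and 9.32 in control replicates. DOX replicate 2 lay far below the other DOX-labelled arrays. The difference was −1.76 (95% confidence interval −3.53 to 0.01) with a limma adjusted p of 0.359. Its size was set in large part by that array. Without it Hes1 fell by 0.84 (SE 0.13, limma adjusted p = 7.54e-04), a 1.79-fold decrease.

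Hey1, a repressor of the related Hey family, read 7.19, 5.86 and 7.79 in DOX replicates 1, 2 and 3, against 8.92, 9.12 and 8.92 in control replicates. The highest DOX-labelled array was more than 1 unit below the lowest control. The difference was −2.04 (95% confidence interval −3.17 to −0.91, limma adjusted p = 0.103). Without DOX replicate 2 Hey1 fell by 1.50 (SE 0.17, limma adjusted p = 7.05e-05), a 2.83-fold decrease.

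Nrarp, the ankyrin-repeat feedback inhibitor that binds the Notch complex, read 6.03, 4.25 and 6.30 in DOX replicates 1, 2 and 3, against 7.92, 7.63 and 7.95 in control replicates. The groups were again wholly separate. The difference was −2.31 (95% confidence interval −3.58 to −1.03, limma adjusted p = 0.102), and −1.67 without DOX replicate 2 (SE 0.14, limma adjusted p = 8.38e-06), a 3.18-fold decrease. Its pattern over the 6 arrays was close to that of Hey1 (root mean square difference 0.25) and of Dll1 (0.37), while Dll1 and Jag1 were the least alike of all pairs of members (2.06).

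Over the 10 members, 7 had groups that did not overlap with all 6 arrays, 6 lower and 1 higher, against 32.0% of all genes (20.3% lower and 11.7% higher). In 8 members all 3 DOX-labelled arrays lay on 1 side of the control mean, as did 47.8% of all genes. The exceptions were Jag2 and Notch2. These shares over all genes are not matched for level. In the steps of like control level that hold the members other than Jag2, the median on DOX replicate 2 was −1.59 to −0.75 from control. A lower reading on that array was thus common among genes of like level. After cyclic loess normalization of all 6 arrays 5 members were lower and 2 higher. Over all 19937 genes the counts rose as well, to 1197 lower and 557 higher, from 450 and 24.

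Genes with high control levels read low on DOX replicate 2, so each member was also set beside the genes in the same 10% step of control level, about 1994 genes per step. In the steps of Dll1 and Hes1 the median difference of that array from the control mean was −1.59, while Dll1 was at −3.82 and Hes1 at −3.60. Nrarp was at −3.58 where its step had a median of −1.06, and 0.0502% of the genes in the step were lower. Hey1 was at −3.12 where its step was at −1.36. For Dll1, Hes1 and Hey1, 2.01%, 2.86% and 2.21% of the genes in the step were lower. Dll1 and all 3 targets thus stood at −2.52 to −1.76 from their steps on DOX replicate 2. On that array Jag1, Notch1 and Notch2 lay 1.05, 1.46 and 0.98 above their steps, although 2 of them overlapped the controls in level. Notch3 and Lfng stood at −0.36 and −0.46 from theirs, nearer than any other member but Jag2.

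In DOX replicates 1 and 3 the medians of the steps holding the members were between −0.12 and 0.04. Dll1 was at −2.80 and −1.96 from its control mean there, with 1.40% and 2.51% of its step lower. Jag1 was at 1.91 and 1.26, with 0.452% and 0.903% of its step higher. Hes1 was nearer to its step than the other targets on these arrays, at −0.95 and −0.73, with 8.32% of the step lower on DOX replicate 1. Set against its step, each of the 10 members lay on the same side on all 3 DOX-labelled arrays. The share of all genes that do so was not counted, and DOX replicates 1 and 3 correlate at 0.992 across genes. The count is therefore no result about the members. Jag2 lay nearest to its step, at −0.24 to −0.04, with 34.3% to 42.4% of the step lower.

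**Figure D3:**
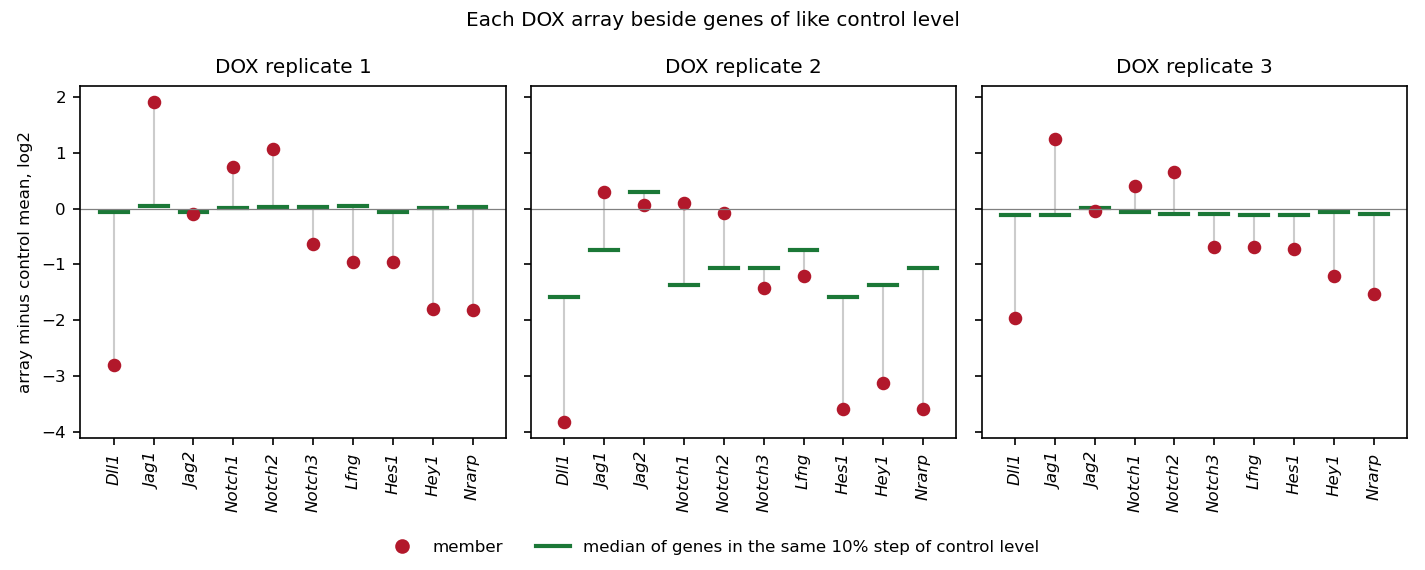
Difference of each member from its control mean on each DOX-labelled array (points, log2), beside the median of the genes in the same 10% step of control level (green bars). The bars lie near 0 on DOX replicates 1 and 3 and fall to −1.59 on DOX replicate 2, where Dll1, Hes1, Hey1 and Nrarp lie below their bars and Notch1, Notch2 and Jag1 above theirs.

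Other genes of the pathway were taken as a list, of which 42 genes with a probe set of their own are described here. With all 6 arrays 0 of the 42 were called by limma, where 2.38% of all genes were. Before adjustment 3 of the 42 (Rfng, Dtx4 and Hes6) had a limma p under 0.05. That share was not counted over all genes, so it does not set these 3 apart. Without DOX replicate 2, 8 were higher and 4 lower, which is 28.6% against the background of 26.6%. The list's median difference was −0.08 with all arrays, against 0.02 over all genes, and 0.07 against 0.01 without DOX replicate 2. Its median absolute difference was 0.22 against 0.35 over all genes with all arrays, and 0.26 against 0.20 without DOX replicate 2, so the order turned with that array.

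The 8 genes of that list that were higher without DOX replicate 2 were spread over the nuclear complex, the proteases and endocytosis and turnover. Of 7 genes of the nuclear complex 3 were higher and none lower, where 12.3% of all genes were higher and 14.3% lower. Maml1, a Mastermind-like coactivator, read 7.97 and 7.80 in DOX replicates 1 and 3, against 7.11 in each control array, a difference of 0.78 (limma adjusted p = 4.67e-04). Spen, a corepressor partner of Rbpj, differed by 0.81 (limma adjusted p = 6.71e-04), and Rbpj itself by 0.51 (limma adjusted p = 0.00804). Of 9 protease genes 2 were higher, a called share of 22.2% against 26.6% of all genes. Adam17, one of the enzymes that cut Notch at the cell surface, read 10.19 and 10.21 in DOX replicates 1 and 3, against 9.51, 9.41 and 9.49 in control arrays (difference 0.73, limma adjusted p = 5.81e-04). Of 12 genes of endocytosis and turnover 3 were higher and 1 lower, a called share of 33.3%, again near that of all genes. Dtx4, a Deltex-type ubiquitin ligase, differed by 1.07 (limma adjusted p = 0.00105) and read 9.02, 8.37 and 8.39 in DOX replicates 1, 2 and 3, against 7.72, 7.74 and 7.46 in control arrays, so that its groups did not overlap in all 6 arrays either. With all arrays the differences were 0.29 for Maml1, 0.46 for Spen, 0.07 for Rbpj, 0.18 for Adam17 and 0.95 for Dtx4 (limma adjusted p = 0.712, 0.496, 0.915, 0.834 and 0.133).

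Among the remaining 5 Hes and Hey genes, 2 were lower and none higher without DOX replicate 2, where 14.3% of all genes were lower. Hes6, a member of the family known to act against Hes1, read 7.75, 6.72 and 7.62 in DOX replicates 1, 2 and 3, against 8.14, 8.34 and 8.10 in control arrays (difference without DOX replicate 2 −0.51, limma adjusted p = 0.00982). Hey2 differed by −0.43 (limma adjusted p = 0.033), at levels of 3.67 to 3.83 in DOX-labelled arrays and 4.07 to 4.38 in control arrays, near the low end of the scale. Hes5 and Heyl were not called (−0.18 and −0.24, limma adjusted p = 0.265 and 0.200). Rfng, a fringe enzyme like Lfng, differed by −0.44 (limma adjusted p = 0.0203), and Neurl1b, a ubiquitin ligase that acts on Notch ligands, by −0.46 (limma adjusted p = 0.0131). With all arrays Rfng, Hes6, Hey2 and Neurl1b differed by −0.56, −0.83, −0.43 and −0.29 (limma adjusted p = 0.270, 0.296, 0.357 and 0.501). Notch4 and Dll4, a receptor and a ligand known mainly from blood vessels, differed without DOX replicate 2 by −0.16 and −0.26 and were not called (limma adjusted p = 0.444 and 0.180).

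**Figure D4:**
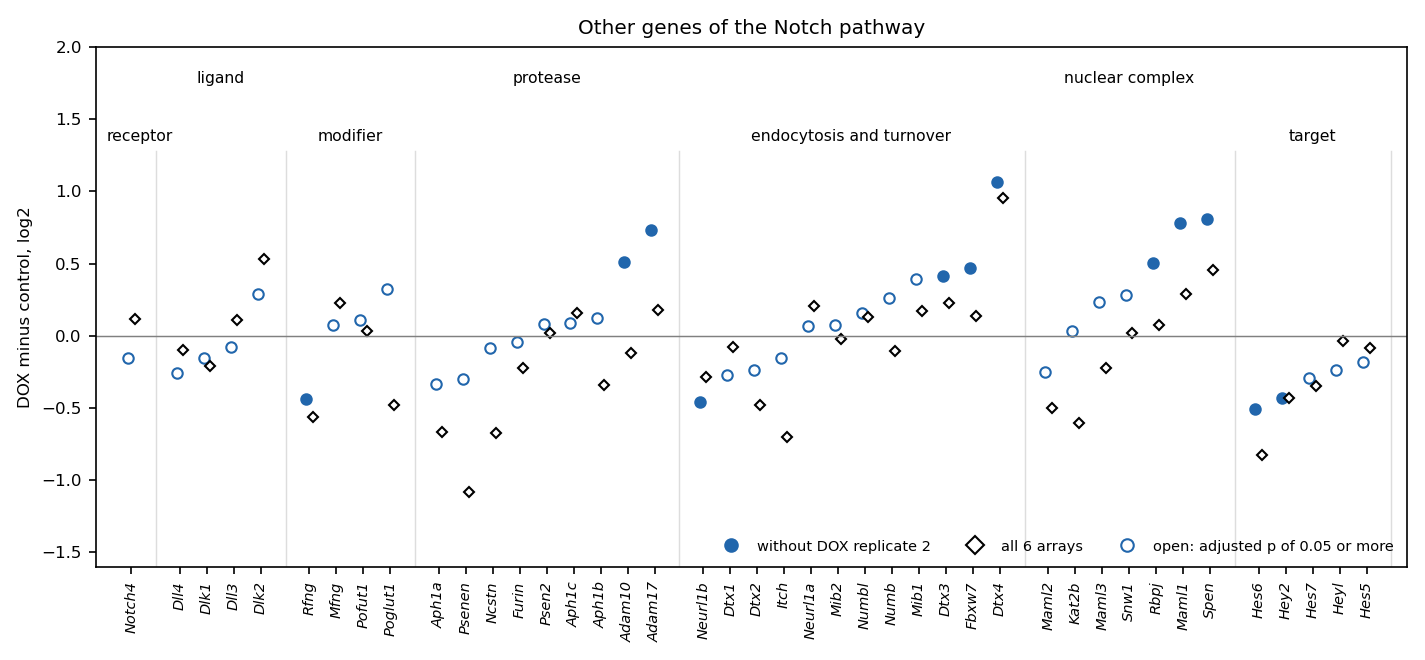
DOX minus control difference (log2) of the 42 other pathway genes measured, grouped by role, without DOX replicate 2 (circles) and with all 6 arrays (diamonds). Filled circles have an adjusted p under 0.05, 8 above 0 and 4 below, and no diamond is filled.

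Marker lists were read beside these values, and their part in the Notch differences was not tested. The organoids read 11.23, 9.42 and 11.32 for Epcam, an epithelial adhesion protein, in DOX replicates 1, 2 and 3, against 11.54 to 11.57 in control arrays. Of 7 luminal markers 2 were lower with all arrays, Elf5 and Kit (−2.19 and −3.28, limma adjusted p = 0.0189 and 0.00156), and 4 without DOX replicate 2, when Krt8 and Krt18 were added. Of all genes 2.26% were lower with all arrays and 14.3% without DOX replicate 2. The mean luminal level was 7.44 to 8.20 in DOX-labelled arrays and 9.09 to 9.16 in control arrays. Of 7 basal markers Oxtr, the oxytocin receptor, was lower (−1.91, limma adjusted p = 0.018), and Krt14 as well without DOX replicate 2 (−1.06, limma adjusted p = 3.38e-04). Trp63, Acta2, Myh11 and Cnn1 were not called in either fit. They differed by 0.53, 0.12, 0.59 and 0.17 with all arrays, and by 0.16, −0.23, 0.24 and −0.03 without DOX replicate 2. The mean basal level was 5.13 to 5.76 in DOX-labelled arrays and 5.54 to 5.67 in control arrays. Krt5, a defining basal keratin, read 5.36, 5.56 and 4.99 in DOX replicates 1, 2 and 3, against 5.39, 5.49 and 4.84 in control arrays, all below the median of 5.92 over all genes. Oxtr averaged 5.20 ± 0.46 in DOX-labelled arrays and 7.12 ± 0.09 in control arrays, and Krt14 averaged 5.64 ± 0.26 in DOX-labelled arrays and 6.61 ± 0.14 in control arrays (SD, n = 3 each). Both lay above that median in every control array and below it in every DOX-labelled array.

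Of 7 endothelial, 7 fibroblast and 4 adipocyte markers 0 were called by limma in either fit. Of 6 immune markers 0 were called with all arrays, and Cd68 and Ptprc were higher without DOX replicate 2, by 1.01 and 0.38 (limma adjusted p = 1.03e-04 and 0.0358). Adgre1, Csf1r, Cd79a and Cd3e were not called in that fit, at −0.22, −0.08, −0.05 and 0.08. Among all genes 2.38% were called with all arrays. Without DOX replicate 2 it was 26.6% of all genes, against 33.3% of the immune markers. The mean endothelial level was 4.48 to 5.27 in DOX-labelled arrays and 4.37 to 4.52 in control arrays, and the highest of these, 5.27, was DOX replicate 2. Pecam1 and Cdh5, which define endothelial cells, read 4.55 and 4.31 in DOX replicate 1, 5.30 and 5.10 in DOX replicate 2 and 4.69 and 4.68 in DOX replicate 3, against 4.47 to 4.72 and 4.32 to 4.47 in control arrays. The mean fibroblast, immune and adipocyte levels were 4.89 to 5.72, 5.14 to 5.59 and 4.58 to 5.12 in DOX-labelled arrays, against 4.90 to 5.04, 5.02 to 5.09 and 4.56 to 4.61 in control arrays. Summaries of this kind have no zero, so absence of a marker cannot be read from them.

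For the 3 members with the smallest p with all arrays, the genes with the nearest pattern over the 6 arrays were sought among the 9674 named genes above the median level. Dll1 was nearest to Fxyd3, which encodes a regulator of the sodium pump, Vdr, the vitamin D receptor, and Nr4a1, an orphan nuclear receptor, with root mean square differences of 0.092, 0.106 and 0.182. Fxyd3 read 8.35, 7.45 and 9.05 in DOX replicates 1, 2 and 3, against 11.09, 11.19 and 11.13 in control arrays. Nrarp was nearest to Pik3r3, Slc29a1 and Ano1 (0.137, 0.138 and 0.175), and Lfng to Dcxr, Plod2 and C2cd4b (0.058, 0.065 and 0.065). These are descriptions over 6 arrays that share the same group difference and the same outlying array.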

How the data were processed

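Total RNA of 6 organoid cultures was labelled with biotin and hybridised to 1-colour Affymetrix mouse arrays, 1 per culture. Each value is a log2 summary of 1 probe set, made by the authors with RMA and the affy package per the submitters' processing notes, without versions. No genome build of the array is given in the sources used here, so probe sets carry no coordinates. Groups and replicate numbers came from the sample titles. Of 34760 probe sets, 21640 have 1 gene symbol in the platform annotation, 1321 several and 11799 none here. Where a gene had several probe sets, the one with the highest mean was kept. Differences were fitted with lmFit and eBayes of limma 3.58.1 under R 4.3.3 (two-sided, without covariates) over 19937 genes, with Benjamini-Hochberg adjustment over all of them and a threshold of 0.05. The fit was tested on simulated data with independent noise for each gene. That test did not model an array that departs over all genes, as DOX replicate 2 did. RMA gives no detection calls, and the number of arrays limits precision.

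The members, lists and tests were chosen with earlier results of these data known. All 10 members were named. Of the other pathway genes, those called with all arrays, the 4 with the smallest p in each direction without DOX replicate 2, and Notch4, Dll4, Rbpj, Hes5 and Heyl were named, besides defining markers and genes nearest in pattern. Genes outside these rules (Elf5, Kit, Oxtr, Cd68, Fxyd3 and the like) were named after their values were seen where a count covers 5 or fewer. Alternatives were each array left out, the replicate number as a block, 2 filters on low genes, 3 normalizations, the mean over probe sets and a variance trend with robust estimation.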

Additional observations from a re-analysis of the deposited data

How the results depend on the processing

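Over the 14 alternatives, 9 of the 10 members kept their direction in all of them. Jag2, which was not called in any, differed by −0.28 to 0.045. Leaving out 1 array gave −0.088 to 0.045 for it, with the sign turned without control replicate 3 (0.045) and without DOX replicate 1 (0.014). Leaving out 1 array gave 0 to 3 members higher and 0 to 6 lower, and 2 to 2454 genes higher and 61 to 2855 lower in all, the highest counts each time without DOX replicate 2. The second quantile normalization gave 1 member and 185 genes higher. Cyclic loess normalization gave 2 members and 557 genes higher, and 5 members and 1197 genes lower. Centring each array on its median gave 0 members lower (Dll1 adjusted p = 0.0538) and 7 genes higher. The median difference of all genes moved by −0.20 with that centring and by −0.11 with the second quantile normalization. With the replicate number as a block 0 members were lower (Dll1 adjusted p = 0.0579), and 3 genes were higher and 159 lower. Same-numbered arrays had correlations of 0.12, 0.19 and 0.09 between their deviations from the group means. DOX replicates 1 and 3 had nearly the same correlations with control replicates 1, 2 and 3 (0.12, −0.19 and 0.09 against 0.12, −0.18 and 0.09). With DOX replicate 2 outlying, their deviations are nearly alike, so this could not decide whether the numbers pair the arrays. The labels do not say, and the main fit took the arrays as unpaired. The causes of these changes were not tested. The remaining alternatives kept 1 member lower and 0 higher. Jag2 is missing where the lowest 50% of genes were left out. The fit without DOX replicate 2 rests on 2 arrays labelled DOX.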
